A study of Homo sapiens with 2 samples.

Results

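The histone lysine methylases and demethylases described here are the autosomal and X-linked protein-coding genes whose symbol begins with KDM, KMT or SETD and a digit. The rule found 36 genes among the 62700 genes of the gene table, or among the 19773 autosomal and X-linked protein-coding genes of GENCODE 29. It uses symbols, gene type and chromosome and no measured value. In all, 55 symbols of any gene type and chromosome matched the pattern. The 36 genes have 395 transcripts among the 251955 of the transcript table, and they lie on 16 chromosomes, with 6 genes on chromosome 11, 5 on chromosome 12 and 2 on chromosome X. All values come from TCam-2, an established human testicular cancer line of the seminoma type, transduced to overexpress FLAG-tagged DDX53, a DEAD-box RNA helicase. The series holds 1 group of 2 replicate libraries of polyadenylated RNA, and the study set these cells against GFP-FLAG and non-transduced cells to find genes changed in expression or splicing. Those control libraries were not analysed here, so no effect of DDX53 is given for any gene. The labels name neither the promoter of the construct nor whether the replicates came from separate transductions, so the spread between the libraries may be technical.

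Histone lysine methylation is written mostly by SET domain enzymes and removed by 2 families of erasers, the FAD-dependent amine oxidases of the LSD type and the JmjC dioxygenases that use iron and 2-oxoglutarate. Methylation of lysine 4 of histone H3 (H3K4) is known from active promoters and enhancers and that of lysine 36 (H3K36) from transcribed gene bodies. Methylation of H3K9 and H3K27 is known from silenced chromatin, and that of lysine 20 of histone H4 (H4K20) from cell cycle control and compaction. Germ cells and their precursors are known for large-scale changes of these marks, and seminoma cells resemble such precursors.

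The gene table gave 24137664 reads in replicate 1 and 22198929 in replicate 2, recovered as whole numbers. Levels of 1 gene are in CPM, the usual read count scaled to the library's total over genes, and levels of different genes are compared only as RPKM (reads per kb of merged exons, scaled like CPM). At this depth 0 reads allow up to 3 reads (0.124 CPM in replicate 1, 0.135 CPM in replicate 2). DDX53 itself had 146 and 147 reads. All 9 listed markers of seminoma and primordial germ cells were detected, as were 3 of 5 of embryonal carcinoma. These were DNMT3B (124 and 98.4 CPM), FGF4 (15.2 and 22.7 CPM) and GDF3 (7.46 and 6.4 CPM), while SOX2 had 24 reads in each library and ZFP42 had 5 and 2. Of later germ cells 0 of 5 and of leukocytes 0 of 3 were detected, the latter with 0 reads. Of testis somatic cells 2 of 5 were detected (SOX9 and AMH, summed list levels of 14.3 and 10.7 CPM), and of fibroblasts 2 of 3. The fibroblast list summed to 465 and 435 CPM, nearly all of it COL1A2 (455 and 424 CPM), with DCN at 1 read in each library.

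Nearly the whole set was expressed. At least 1 CPM in both libraries, the detection threshold used here, was reached by 35 of the 36 genes, against 61.8% of all autosomal and X-linked protein-coding genes. The exception was KDM4F. It had 1 read in replicate 1 (0.0414 CPM, with 95% Wilson limits of 0.00731 and 0.235), and 7 in replicate 2 (0.315 CPM, limits of 0.153 and 0.651). The median level of the 35 detected genes was 6.15 RPKM, beside 5.29 RPKM over the 12375 protein-coding genes whose mean reached 1 CPM. In each library alone it was 6.09 and 5.88 RPKM. Uncorrected for length, their median was 53.1 CPM, beside 28.4 CPM for the same protein-coding genes. The genes in order of RPKM gave 35 pairs of neighbours. In 21 of these pairs the ranges of the 2 libraries overlapped, so their order is not resolved, and in 14 they did not.

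**Figure D1:**
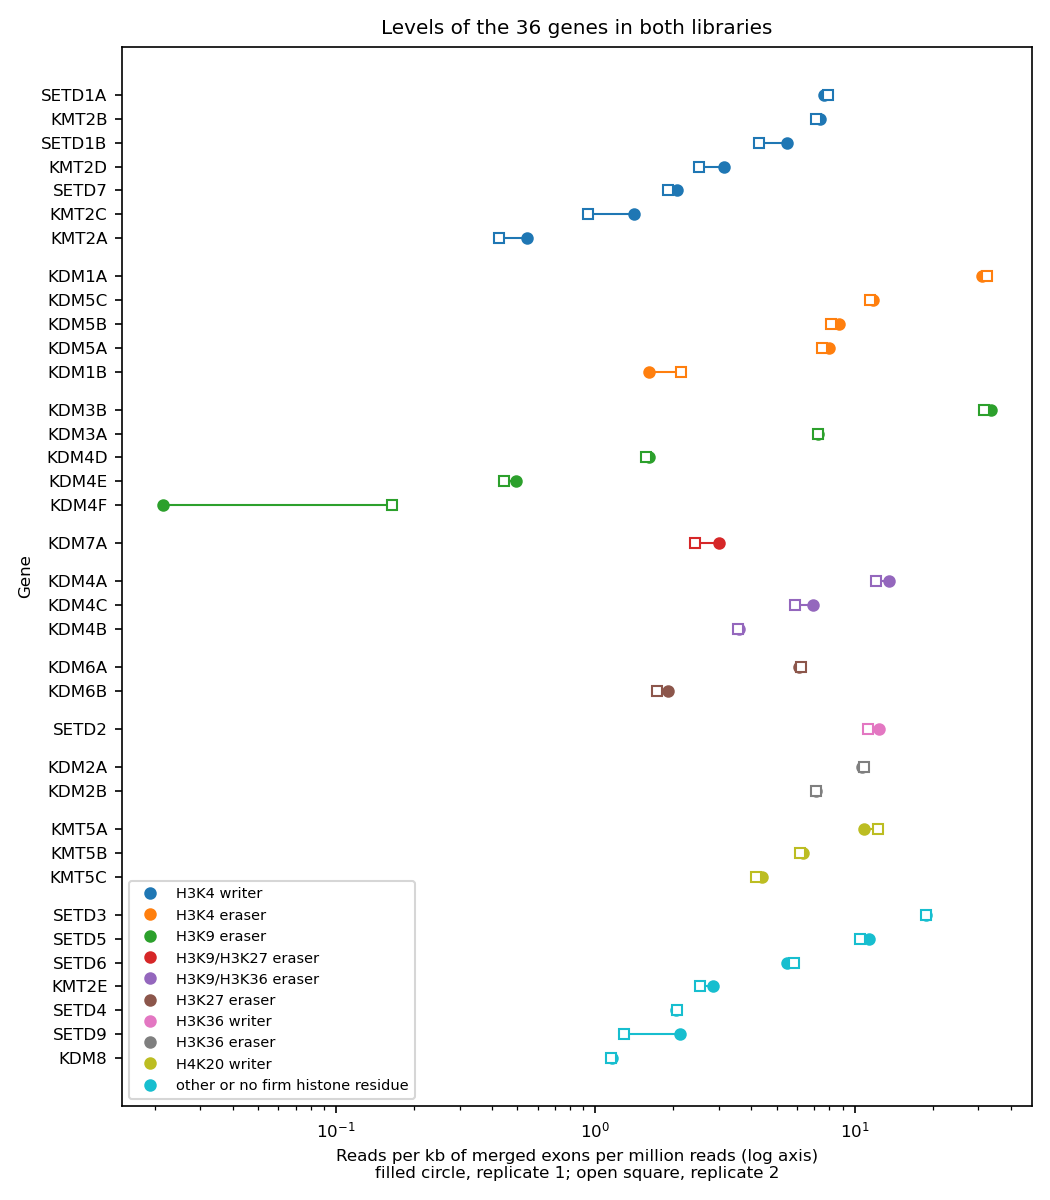
Level of each of the 36 genes in RPKM (log axis), with replicate 1 as a filled circle and replicate 2 as an open square, in groups by the residue the enzyme acts on. KDM3B and KDM1A lie near 30 RPKM at the right, and KDM4F is alone below 0.2 RPKM.

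The 7 writers of H3K4 had a median of 2.83 RPKM and ranged from KMT2A to SETD1A. SETD1A, catalytic subunit of a COMPASS complex that methylates promoters broadly, was the highest by merged exons at 7.61 and 7.93 RPKM (7.77 ± 0.228, SD, n = 2). By the longest-coding transcript KMT2B was above it, at 8.90 and 8.59 against 8.06 and 8.40 RPKM, and by TPM KMT2B, SETD1B and SETD7 were. Its paralogue SETD1B had 5.50 and 4.29 RPKM (4.90 ± 0.856). KMT2B, a COMPASS-like writer needed for H3K4 methylation in oocytes, had 7.33 and 7.08 RPKM (7.20 ± 0.179). By merged exons KMT2B overlapped neither SETD1B nor the other 3 genes of the KMT2A to KMT2D family. By TPM it overlapped SETD1B, at 5.88 and 7.62 against 7.39 and 5.90 TPM. KMT2D, which methylates H3K4 at enhancers, followed at 3.14 and 2.52 RPKM (2.83 ± 0.445). KMT2C, its partner at enhancers, had 1.41 and 0.941 RPKM (1.17 ± 0.330). Its pseudogene copies KMT2CP1 to KMT2CP5 had 0 reads in both libraries. Their part in its count was not tested, so the count is uncertain. KMT2A, the founding member and the target of leukaemia translocations, had 0.545 and 0.426 RPKM (0.486 ± 0.0844), the lowest of the writers. SETD7, a mono-methylase with many substrates outside histones, had 2.08 and 1.91 RPKM (1.99 ± 0.119). The ratio of KMT2B to KMT2A was 15.0 ± 2.24 (SD, n = 2) by merged exons and 9.69 ± 1.45 with the length of the transcript that has the longest coding sequence. KMT2A has 31.3 kb of merged exons, of which 17.9% also lies in exons of another annotated gene on the same strand, and how reads in shared exons were counted is not given in the sources used here.

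Among the 5 erasers of H3K4, KDM1A was the highest by RPKM and KDM1B the lowest. By TPM KDM1A overlapped KDM5B, at 47.7 and 56.5 against 49.4 and 42.2 TPM. KDM1A, the LSD1 amine oxidase of the CoREST complex, had 31.0 and 32.5 RPKM (31.8 ± 1.1, SD, n = 2). KDM1B, the LSD2 oxidase known from oocytes, had 1.61 and 2.15 RPKM (1.88 ± 0.384). The ratio of KDM1A to KDM1B was 19.3 in replicate 1 and 15.1 in replicate 2, and the ranges were far apart. It was 17.6 and 13.8 by the longest-coding transcript and 114 and 101 by TPM, so the direction held and its size did not. KDM1B is one of the genes whose reads far exceeded the TPM prediction, as described below. Of the JmjC erasers, KDM5C on chromosome X had 11.8 and 11.5 RPKM (11.6 ± 0.221). KDM5B had 8.73 and 8.12 RPKM (8.42 ± 0.425), and KDM5A, the RB1-binding member, had 8.0 and 7.46 RPKM (7.73 ± 0.383). The order of KDM5B and KDM5C turned with the length used. KDM5B was at 0.724 of KDM5C by merged exons, at 1.99 times it by the longest-coding transcript and at 1.87 times it by TPM. KDM5B has 25.9 kb of merged exons over 40 transcripts, while its transcript with the longest coding sequence has 6520 bases.

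KDM1A and KDM5C have alternative coding segments that keep the reading frame, and their inclusion could be read from the transcript table. They are shown because inclusion, over the transcripts found in GENCODE 29 alone, ranged from 0% of TPM in KDM1A to most of it in KDM5C. Each line gives the segment in capitals between 20 flanking bases of the spliced GENCODE 29 transcript on GRCh38, in the direction of the gene.
KDM1A 60-base segment, plus strand, chr1:23044427-23044486: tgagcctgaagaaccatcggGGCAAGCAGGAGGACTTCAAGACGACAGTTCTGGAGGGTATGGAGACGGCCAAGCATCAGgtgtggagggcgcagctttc
KDM5C 9-base segment, minus strand, chrX:53193773-53193781: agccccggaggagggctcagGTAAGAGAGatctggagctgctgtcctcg
KDM5C 3-base segment, minus strand, chrX:53217275-53217277: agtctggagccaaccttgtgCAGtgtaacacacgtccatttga
The KDM1A segment belongs to KDM1A-202, which is listed at 0 TPM in both libraries, while transcripts that skip it had 47.7 and 56.4 TPM. KDM1A-201 held 100% and 99.8% of the gene's TPM. KDM1A reads were 1.74 and 1.54 times those predicted from TPM, a comparison described below. Whether reads beyond the prediction hold the segment was not tested. In KDM5C, transcripts with the 9-base segment held 77.6% and 78.4% of the TPM across it. The share with the 3-base segment was 91.8% in replicate 1 and 77.6% in replicate 2, a wider gap. KDM5C-204, which has both, held 60.6% and 47.5% of all KDM5C TPM.

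Among the erasers of H3K9, KDM3B was the highest and KDM4F the lowest, and by merged exons this held for the whole set. By the longest-coding transcript KDM1A was first, with 55.1 and 57.9 against 39.1 and 37 RPKM for KDM3B. KDM3B, a JmjC eraser of mono- and dimethyl H3K9, had 33.5 and 31.6 RPKM (32.6 ± 1.31, SD, n = 2), a range that overlaps that of KDM1A. Its paralogue KDM3A, known for a role in spermatogenesis, had 7.25 RPKM in both libraries (7.25 ± 0.000589). The ratio of KDM3B to KDM3A was 4.49 ± 0.180 by merged exons and 1.93 ± 0.0771 by the longest-coding transcript, so the direction held and its size did not. KDM7A, which acts on H3K9 and H3K27, had 2.99 and 2.43 RPKM (2.71 ± 0.397).

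The KDM4 erasers ranged from KDM4A down to KDM4F. KDM4A, which acts on trimethyl H3K9 and H3K36, had 13.5 and 12.1 RPKM (12.8 ± 1.02, SD, n = 2). KDM4C, known for a role in pluripotent cells, had 6.92 and 5.88 RPKM (6.40 ± 0.733). KDM4B, with the same targets, had 3.57 and 3.55 RPKM (3.56 ± 0.0175). These 3 genes did not overlap with each other by merged exons, whereas KDM4A and KDM4C overlapped by the longest-coding transcript, at a ratio of 1.04 ± 0.0366. KDM4A shares 40.2% of its merged exons with another gene on the same strand, and its reads were 0.583 and 0.562 of those predicted from TPM. The smaller KDM4D, KDM4E and KDM4F, which lack the PHD and Tudor domains and act on H3K9, lie close together on the plus strand of chromosome 11. KDM4D (94973681 to 94999518) had 1.61 and 1.57 RPKM (1.59 ± 0.0287). KDM4E (95025258 to 95027596) had 28 and 23 reads, or 0.496 and 0.443 RPKM (0.469 ± 0.0375). KDM4F (95049422 to 95051338) had 0.0216 and 0.165 RPKM.

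The starts of KDM4D and KDM4F are shown because these related neighbours stand on either side of detection. Each line gives the 250 bases before the gene's start from RefSeq on GRCh38.p14, with CpG dinucleotides in capitals.
KDM4D, plus strand, chr11:94973459-94973708: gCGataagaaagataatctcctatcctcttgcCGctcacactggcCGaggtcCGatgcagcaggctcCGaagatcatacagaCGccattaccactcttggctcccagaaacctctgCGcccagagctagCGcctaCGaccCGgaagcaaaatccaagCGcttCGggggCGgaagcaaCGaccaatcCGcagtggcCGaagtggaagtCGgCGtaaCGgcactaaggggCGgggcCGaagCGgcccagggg
KDM4F, plus strand, chr11:95049172-95049421: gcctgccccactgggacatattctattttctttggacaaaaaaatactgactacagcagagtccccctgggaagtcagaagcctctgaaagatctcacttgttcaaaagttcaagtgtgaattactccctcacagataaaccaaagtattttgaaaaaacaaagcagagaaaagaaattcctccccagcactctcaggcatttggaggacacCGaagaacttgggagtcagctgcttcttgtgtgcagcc
The KDM4D sequence holds 22 CpG and the KDM4F sequence 1. The only KDM4F transcript listed has 1917 bases, 1914 of them coding, while KDM4D-201 has 2978 bases, 1569 of them coding. The annotated KDM4F start may thus be that of the coding sequence, so the 2 sites may be unlike. Where KDM4F transcription starts was not tested. Over the 300 bases from 250 before to 50 after the start, 34 of the 36 genes had a RefSeq entry (KDM4E and SETD1B did not match). Their median was 29.5 CpG, beside 22 over the 15271 protein-coding genes with an entry. KDM4F, with 2 CpG, was the 1 member with 10 CpG or fewer, a class that held 28.1% of the protein-coding genes. The GC box GGGCGG, searched on both strands, was present in 25 of the 34 members and in 59.1% of the protein-coding genes. The letters TATAAA, searched on both strands, were in 0 members and in 9.71% of those genes. These are descriptions of sequence, and the pair was chosen for printing after the CpG counts were seen.

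The 2 erasers of H3K27 were apart by reads. KDM6A, the X-linked UTX enzyme that works with KMT2C and KMT2D at enhancers, had 6.09 and 6.20 RPKM (6.15 ± 0.0774, SD, n = 2). KDM6B, the inducible JMJD3 enzyme, had 1.91 and 1.73 RPKM (1.82 ± 0.128). The ratio of KDM6A to KDM6B was 3.38 ± 0.280 by RPKM and 1.11 ± 0.613 by TPM, where the ranges overlapped. KDM6A is one of the genes whose reads far exceeded the TPM prediction, as described below.

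SETD2 was above KDM2A and KDM2B by merged exons alone. With the longest-coding transcript it was below both without overlap, with means of 14.67 against 16.06 and 21.01 RPKM. It was also below both by TPM, at 6.07 against 27.8 and 28.5 TPM. SETD2, which makes trimethyl H3K36 behind RNA polymerase II, had 12.4 and 11.3 RPKM (11.8 ± 0.811, SD, n = 2). KDM2A, a JmjC eraser that binds CpG islands through a CXXC domain, had 10.7 and 10.8 RPKM (10.8 ± 0.0851). KDM2B, its paralogue in a variant Polycomb complex, had 7.09 RPKM in both libraries (7.09 ± 0.00181). KDM2A was at 1.52 ± 0.0124 times KDM2B by merged exons and at 0.764 ± 0.00623 of it by the longest-coding transcript. By TPM the ratio was 0.980 ± 0.0886 with overlapping ranges, so the order of this pair depends on the length.

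The 3 writers of H4K20 descended from KMT5A to KMT5C. KMT5A, which places the first methyl group in a cell cycle dependent manner, had 10.9 and 12.3 RPKM (11.6 ± 1.01, SD, n = 2). Of its pseudogene copies, KMT5AP1 had 3 and 0 reads, KMT5AP2 had 3 and 2, and KMT5AP3 had 0 in both libraries. Their part in the KMT5A count was not tested, so that count is uncertain. KMT5B, which extends it to the di- and trimethyl forms, had 6.34 and 6.17 RPKM (6.26 ± 0.121). KMT5C, the other enzyme of that step, had 4.38 and 4.16 RPKM (4.27 ± 0.156). The 3 did not overlap on any of the 3 scales, with KMT5A at 2.73 ± 0.336 times KMT5C by merged exons, 1.92 ± 0.237 times by the longest-coding transcript and 1.76 ± 0.00610 times by TPM.

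The last 7 genes have substrates outside histones or no firm histone residue. SETD3, an actin histidine methyltransferase, had 18.9 RPKM in both libraries (18.9 ± 0.0228, SD, n = 2) and ranked behind KDM3B and KDM1A alone. Its mean kept this rank by TPM and the longest-coding transcript, but on both scales the range of KDM5B overlapped it. SETD3 had 46.1 TPM in both libraries against 49.4 and 42.2 for KDM5B. By the longest-coding transcript it had 34.0 and 34.1 RPKM against 34.6 and 32.3. SETD5, a chromatin protein linked to intellectual disability, had 11.4 and 10.5 RPKM (10.9 ± 0.664). SETD6, which methylates the NF-kappaB subunit RELA, had 5.49 and 5.86 RPKM (5.67 ± 0.258). Of the merged exons of SETD6, 21.4% overlap CNOT1 on the opposite strand, and the strand setting of the counting is not given in the sources used here. KMT2E, a KMT2 relative without proven methylase activity, had 2.85 and 2.54 RPKM (2.7 ± 0.221). SETD4 had 2.06 RPKM in both libraries (2.06 ± 0.00504), and SETD9, little studied, had 2.12 and 1.3 RPKM (1.71 ± 0.586). KDM8, a JmjC protein now known as a peptidase and hydroxylase, had 1.16 and 1.15 RPKM (1.15 ± 0.00729).

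The replicates were then set against each other. An exact binomial test on reads (edgeR, Benjamini-Hochberg adjustment over 15299 genes, threshold 0.05) asks whether 2 libraries differ by more than counting noise. It compares these libraries, not conditions. Of the 35 members tested, 14 were called (40%), against 13.1% of all genes tested. Lower in replicate 2 were 12, against 6.35% of all genes, and higher were 2, against 6.78%. Deeply read genes are called more easily, so the share was also taken over genes whose mean reached 10 CPM, a choice made after the first count was seen. There 13 of 31 members were called, against 19.1% of all such genes.

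Of the 7 writers of H3K4, 4 were called, all of them lower in replicate 2, beside 21.5% called and 14.8% lower among all genes with at least 8 kb of exons and 10 CPM. KMT2C had the smallest adjusted p of the set, falling from 28.3 to 18.9 CPM between replicate 1 and replicate 2, by 0.56 on the log2(CPM + 1) scale (exact binomial test, edgeR, adjusted p of 6.58e-09). KMT2D fell from 64.4 to 51.5 CPM, by 0.32 (exact binomial test, edgeR, adjusted p of 9.07e-07). SETD1B fell from 45.7 to 35.7 CPM, by 0.35 (exact binomial test, edgeR, adjusted p of 6.73e-06), and KMT2A fell from 17.1 to 13.3 CPM, by 0.33 (adjusted p of 0.0167 in the same test). The other writers, SETD1A, KMT2B and SETD7, did not pass, with log2 differences of 0.059, -0.050 and -0.12. SETD9 had the widest gap of the set in either direction, 5.76 against 3.51 CPM and 139 against 78 reads (log2 difference -0.58, exact binomial test, edgeR, adjusted p of 0.00682).

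The other lower calls were in erasers, SETD2 and SETD5. KDM7A fell from 28.2 to 22.9 CPM and KDM4C from 71.4 to 60.7 CPM. KDM4A went from 69.9 to 62.5 CPM, SETD2 from 125 to 114 CPM, SETD5 from 123 to 113 CPM and KDM5B from 226 to 210 CPM, all past the threshold. KDM3B was the last to pass, at 267 and 252 CPM (exact binomial test, edgeR, adjusted p of 0.0416). Higher in replicate 2 were KDM1B, from 8.99 to 12 CPM (log2 difference 0.38, adjusted p of 0.0138), and KMT5A, with 1207 and 1255 reads (log2 difference 0.17, adjusted p of 0.0165), both by the exact binomial test in edgeR. Of the 14 called genes, 12 moved in the same direction by summed TPM and 2 did not. These 2 were KMT2A (0.539 and 0.870 TPM) and SETD2 (5.25 and 6.89 TPM). KMT2D is among the 12 through 1 retained-intron transcript alone, at 0.668 and 0 TPM.

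As a set, 26 of 35 members were lower in replicate 2 and 9 higher. The median log2 difference was -0.071, with a range from -0.58 to 0.38, beside -0.0077 over all 13898 genes whose mean reached 1 CPM, of which 52.2% were lower. Exon length moved with this difference, and these are long genes. Their median merged exon length was 8.47 kb, beside 4.78 kb over all genes tested, and 19 of the 36 (52.8%) had at least 8 kb, against 19.8%. Over all genes whose mean reached 10 CPM the median difference went from 0.011 at 2 to 4 kb to -0.069 at 12 kb or more. Of the 9 members of 12 kb or more, 9 were lower (median -0.10), beside 70.9% of all genes of that length. Among these 9, KDM2B and KDM3A were at -0.00052 and -0.00016 and turned to 0.0073 and 0.0077 with TMM scaling. Of the 10 members of 8 to 12 kb, 9 were lower (median -0.13), beside 58.1% of all genes. Of the 8 members of 4 to 6 kb 3 were lower (median 0.036), and of the 5 members of 6 to 8 kb 2 were (median 0.0047). The 3 members of 2 to 4 kb went against the trend, with 3 lower (median -0.085), SETD9 among them. The Spearman coefficient of the difference with length was -0.345 over 35 members and -0.129 over 9356 genes. The members were taken from a mean of 1 CPM and the genes from 10 CPM, so the filters differ. Both coefficients are descriptions, since all points share the same pair of libraries. With the median of each length class, taken over the genes that reached 10 CPM, removed, the median of the members was -0.033 and 24 were lower. Among genes of at least 8 kb and 10 CPM, 9 of 19 members were called (47.4%), all of them lower, against 21.5% called and 14.8% lower over all such genes. Length classes and this narrower background were chosen after the difference was seen. RNA integrity is not given in the labels, and its part in the difference was not tested.

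**Figure D2:**
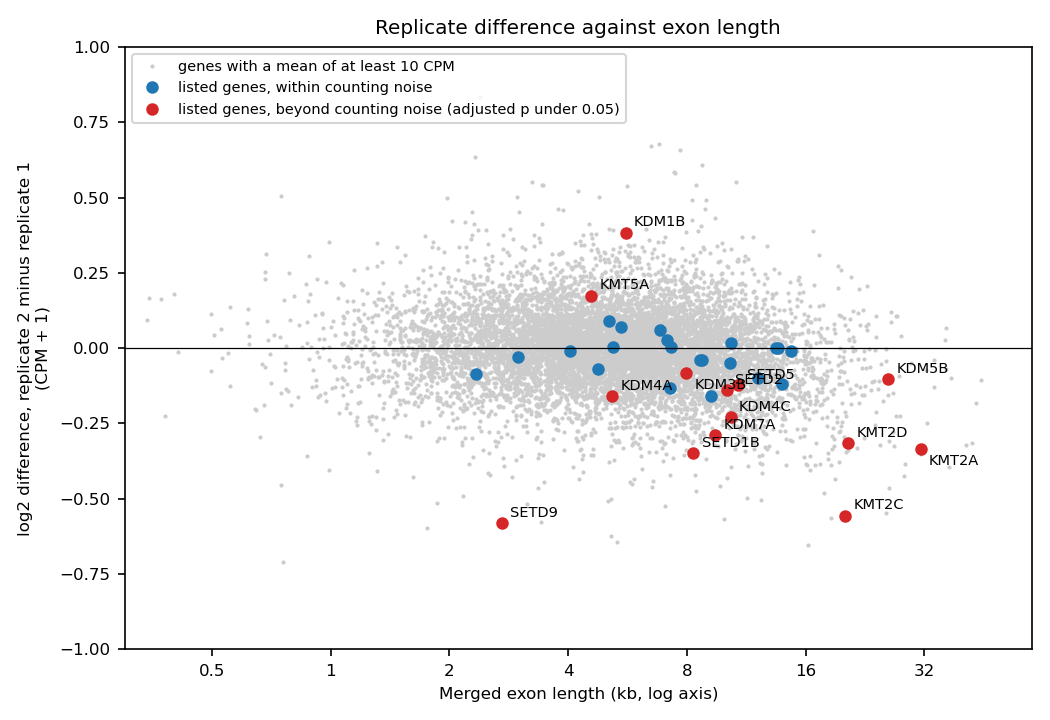
Log2 difference between the replicates, replicate 2 minus replicate 1 on the log2(CPM + 1) scale, against merged exon length in kb (log axis). Grey points are genes whose mean reached 10 CPM, blue points are listed genes within counting noise and red points are the 14 beyond it, with KMT2A, KMT2C and KMT2D at the lower right and KDM1B and KMT5A above 0.

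The transcript table was used to describe which forms of each gene were present. TPM, a level per transcript scaled to length and library, keeps no depth, so shares of it have no interval. Of the 395 transcripts, 66 had at least 1 TPM in both libraries and 177 were listed at 0 in both. In 30 genes the transcripts summed to 1 TPM or more in both libraries. The share of TPM in transcripts annotated as protein-coding had a median of 84.3% over these 30 (85.7% and 83.6% in the libraries), beside 96.5% and 96.7% over 11825 protein-coding genes. KDM5B was the 1 member under 50% in both libraries, a class that held 6.93% of those genes. Its noncoding transcript KDM5B-232, of 6149 bases, held 57.4% and 58.1% of its TPM.

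**Figure D3:**
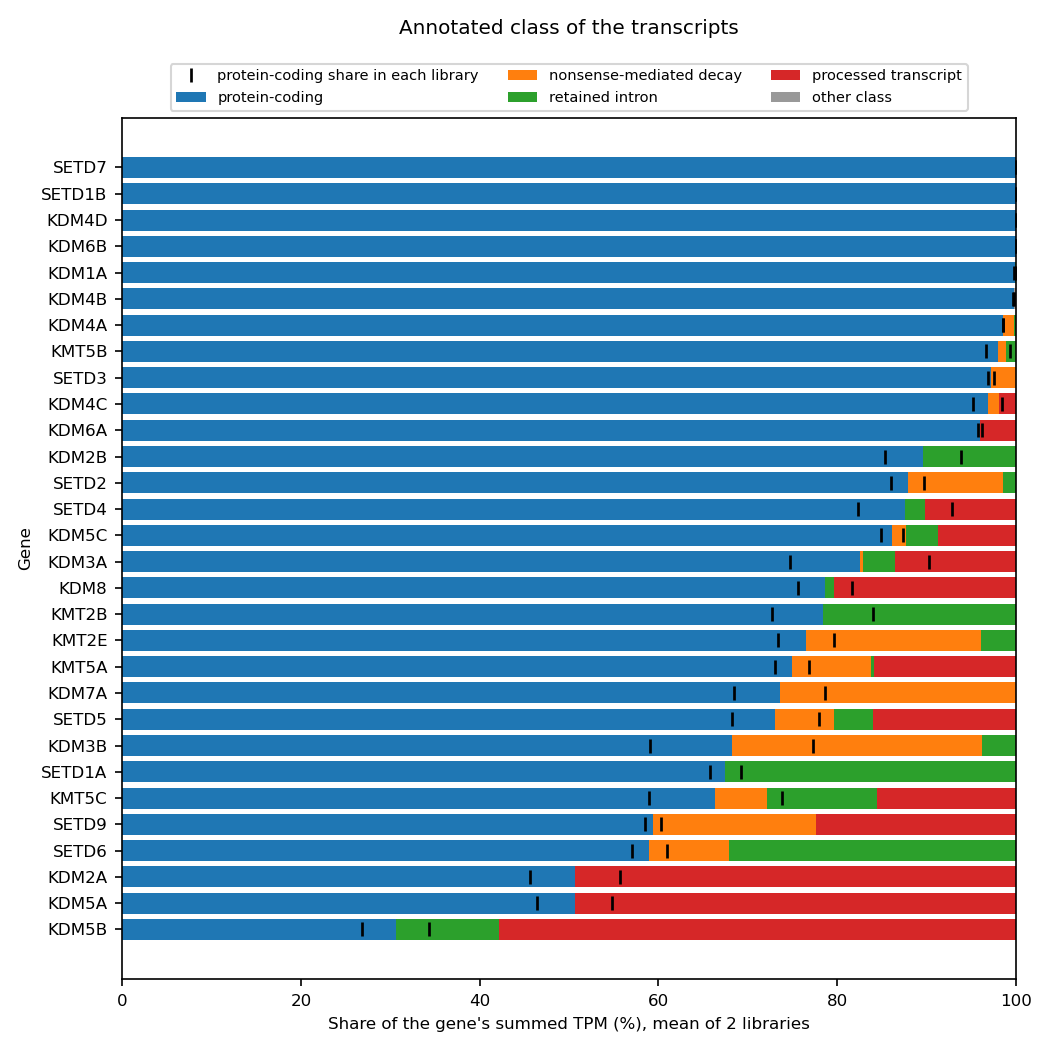
Share of the summed TPM of 30 genes in transcripts of each annotated class, as the mean of 2 libraries, with black ticks at the protein-coding share of each library. The shares go from 100% protein-coding in SETD7, SETD1B, KDM4D and KDM6B down to 30.6% in KDM5B.

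In KDM5A and KDM2A a noncoding form shared the lead with a coding one. In KDM5A the short processed transcript KDM5A-207 held 53.6% and 45.2% and the full-length KDM5A-201 46.4% and 54.8%. In KDM2A the processed transcript KDM2A-204 held 50.3% and 39.7% and the coding KDM2A-210 36.1% and 44.2%. In both genes the top transcript therefore differed between the libraries. It also differed in KMT5B (KMT5B-206 with 35.1% in replicate 1, KMT5B-203 with 28.8% in replicate 2) and in SETD2 (SETD2-202 with 89.7%, then SETD2-209 with 42.9%). These 4 of 30 genes (13.3%) compare with 11.1% of protein-coding genes, close to that background.

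Retained introns and transcripts marked for nonsense-mediated decay took shares that differed widely between these 30 members, and the 3 with the largest mean share of each kind are given. Retained introns held 32.1% ± 0.638 of SETD6, 32.5% ± 2.41 of SETD1A and 21.6% ± 8.02 of KMT2B (SD, n = 2 each). In SETD1A this was the single transcript SETD1A-203, beside SETD1A-201 at 65.8% and 69.2%. Transcripts marked for decay held 28.0% ± 13.0 of KDM3B, 26.4% ± 7.17 of KDM7A and 19.6% ± 4.17 of KMT2E (SD, n = 2 each). In KDM7A this was KDM7A-202 alone, at 21.4% and 31.5%, beside KDM7A-201 at 78.6% and 68.5%. For KMT2E the share came mostly from different transcripts in each library. KMT2E-203 held 15.4% and 0%, and KMT2E-208 held 0% and 21.0%. In KMT5B, transcripts with at least 90% of the longest coding sequence of 885 codons held 16.5% of TPM, and the leading KMT5B-206 and KMT5B-203 each encode 393 codons. Of the other leading transcripts, KDM3B-201 held 59.1% and 77.3%, KDM4A-201 95.7% and 94.7%, KDM4C-202 80.2% and 81.9% and SETD3-202 96.4% and 95.6%. KDM2B-202 held 66.4% and 64.3%, KMT2B-201 84.1% and 72.7%, KMT5A-202 76.8% and 73.0% and KMT5C-201 73.8% and 58.9%. SETD7-201 held 82.2% and 86.7%, KDM8-201 75.6% and 81.7%, SETD9-201 58.9% and 53.7% and KDM6B-202 64.4% and 100%. SETD1B-203, KDM4D-201, KDM4E-201 and KDM4F-201 held all of their genes' TPM. Use was more divided in KDM3A (KDM3A-201 with 38.2% and 57.1%, KDM3A-202 with 35.2% and 31.9%). In SETD5, SETD5-205 held 43.3% and 48.6%, in KMT2E, KMT2E-202 held 47.0% and 59.1%, and the leading SETD4-201 and SETD6-202 stayed under 40% in both libraries.

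Longer alternative segments were read in the same way, and that of KDM4B is shown because most of the gene's TPM included it. Capitals again mark the segment between 20 flanking bases of the GENCODE 29 transcript on GRCh38.
KDM4B 102-base segment, plus strand, chr19:5119118-5119219: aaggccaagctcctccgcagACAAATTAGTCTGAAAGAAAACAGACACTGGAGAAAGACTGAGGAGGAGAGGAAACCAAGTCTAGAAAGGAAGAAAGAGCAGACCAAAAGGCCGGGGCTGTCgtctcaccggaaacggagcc
The KDM4B segment adds 34 codons in frame and was in 84.4% and 91.9% of the TPM across it, through KDM4B-211 with 83.2% and 90.9% of the gene. A segment of 135 bases of SETD6 was included at 76.1% and 72.5%. Segments whose lengths shift the frame were included at 82.8% and 96.6% in KDM3B (98 bases) and at 100% and 80.5% in KMT5A (122 bases). The segments were chosen after the transcript shares were seen.

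**Figure D4:**
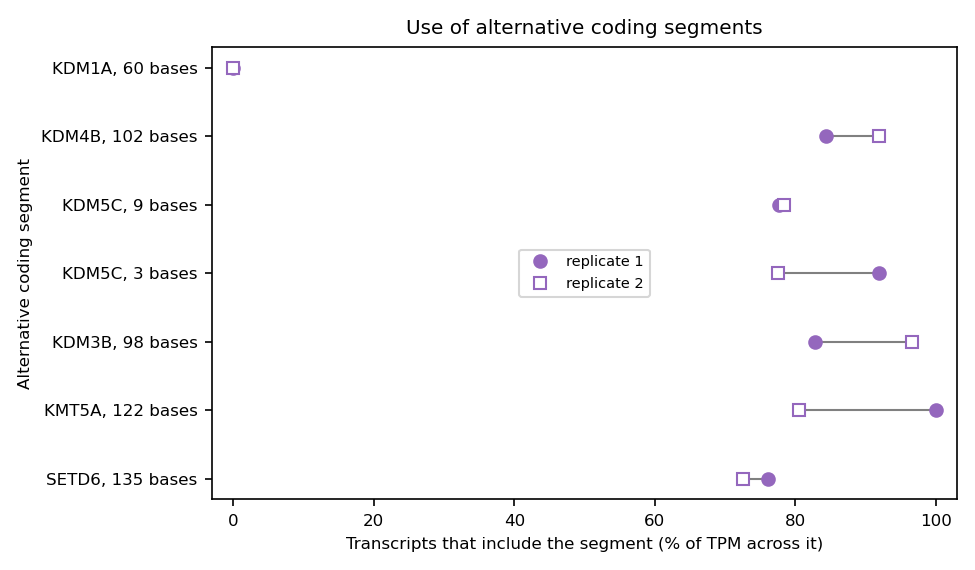
Share of TPM in transcripts that include each of 7 alternative coding segments, out of the TPM of all matched transcripts across it, in replicate 1 (circle) and replicate 2 (square). The KDM1A segment is at 0% and the other 6 lie above 70%.

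The 2 deposited tables disagreed on several members. For each detected gene the reads were set against those predicted from TPM times transcript length. Reads exceeded the prediction more than 4-fold in both libraries for 6 of 35 members, against 2.15% of 12209 detected protein-coding genes. Reads were as far below it for 0 members, against 1.5% of those genes, and 3.64% of them lay outside 4-fold in either direction. KMT2D stood out, with 1555 and 1144 reads but a single retained-intron transcript, KMT2D-207, at 0.668 TPM in replicate 1 and all transcripts listed at 0 in replicate 2. Its reads were 167 times the prediction in replicate 1. KMT2A had 23.0 and 6.95 times the predicted reads, KDM6A 12.1 and 6.33 times, KDM1B 8.41 and 9.58 times, SETD1A 8.81 and 4.14 times and SETD2 4.42 and 4.74 times. KMT2C, at 3.0 and 9.26 times, passed in replicate 2 only. The shares of transcripts in these genes cover the matched transcripts alone. Thus the shares of KMT2A-221 (59.5% in replicate 1), KMT2A-208 (59.7% in replicate 2) and KMT2A-209 (40.5% and 40.3%) rest on under 1 TPM, and 0% came from transcripts near the longest coding length. KDM1B-201 (100% and 47.9%), KDM1B-202 (0% and 52.1%) and KMT2C-206 (41.2% and 100%) were each under 1 TPM as well. KDM6A-204, of 735 bases, led at 50.9% and 55.5%, ahead of KDM6A-201 at 44.9% and 40.7%. The transcript table holds 50288 transcripts that GENCODE 29 lacks, with 5.21% and 5.24% of all TPM, and whether some belong to these genes was not tested. SETD1A against SETD1B shows what this does to a comparison: their ratio was 1.62 ± 0.329 by RPKM and 0.485 ± 0.310 by TPM (SD, n = 2).

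**Figure D5:**
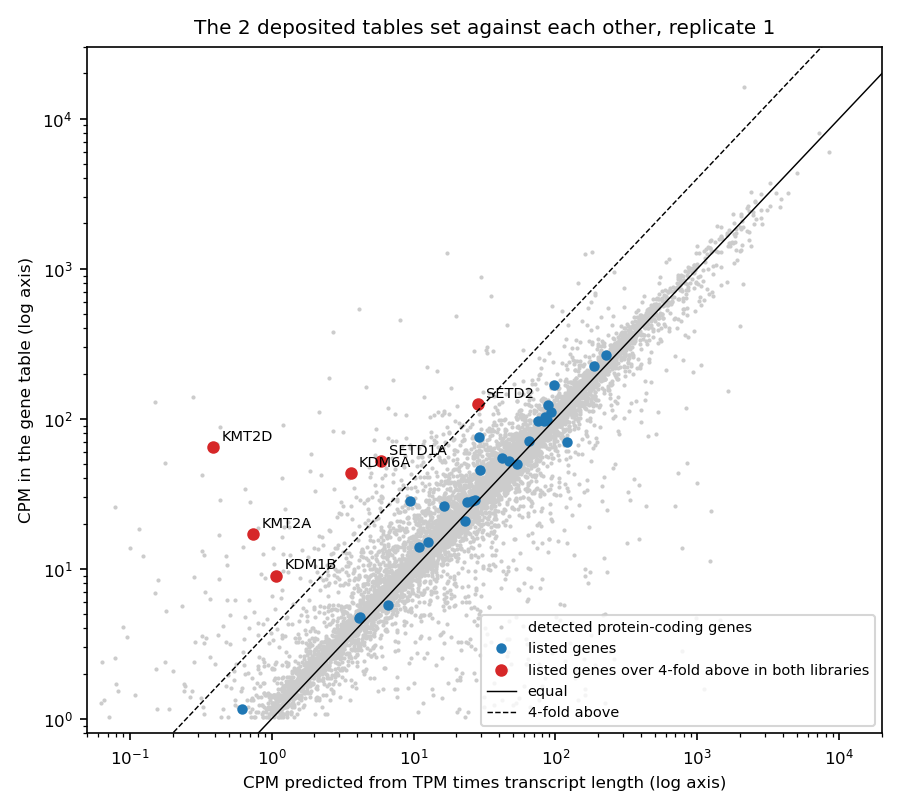
CPM in the gene table against the CPM predicted from TPM times transcript length, in replicate 1 (both axes log), for detected protein-coding genes (grey) and the listed genes (blue, or red where reads were over 4-fold above the prediction in both libraries). KMT2D lies farthest from the line of equality, followed by KMT2A, KDM6A, SETD1A, KDM1B and SETD2.

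Other genes of histone lysine methylation were taken from 8 lists of writers, JmjC genes and complex subunits. Of each list the genes with the most and the fewest reads are named by CPM, which is not corrected for length and gives no order of levels. Of 46 genes, 45 were detected in both libraries, and SMYD1, a muscle methyltransferase, was not, with 4 and 13 reads. The binomial test called 10 of 45, of which 7 were lower and 3 higher in replicate 2, beside the 13.1% of all genes tested and 19.1% of those that reached 10 CPM. COMPASS subunits, which activate the KMT2 and SETD1 enzymes, had a median of 15.5 RPKM, with most reads in ASH2L (153 and 150 CPM) and fewest in PAGR1 (12.3 and 10.9 CPM). CoREST subunits, the partners of KDM1A, had a median of 16.9 RPKM, with most reads in HDAC1 (320 CPM in both libraries) and fewest in RCOR2 (24.4 and 24.6 CPM). Of the 11 COMPASS genes 2 were called (WDR5 and NCOA6, both lower in replicate 2). Among the 5 H3K36 writers 4 were called, with NSD1, NSD2 and ASH1L lower in replicate 2 and SETMAR higher. Calls numbered 2 among the 7 H3K9 writers, 1 among the 5 SMYD genes and 1 among the 8 other JmjC genes. The H3K27 writers and DOT1L had 0 calls. Of the 7 CoREST genes 0 were called by the exact binomial test in edgeR, and the nearest was RCOR1, with an adjusted p of 0.0532. Among the H3K9 writers EHMT1 had the most reads, 111 and 99.1 CPM, and SETDB2 the fewest, 10.4 and 10.2 CPM. EZH2 and EZH1, the H3K27 writers of Polycomb, had 18.9 and 18.5 CPM and 16.6 and 17.2 CPM. NSD1, an H3K36 dimethylase, had the most reads of its list and fell from 287 to 234 CPM (exact binomial test, edgeR, adjusted p of 3.67e-25), while SETMAR had the fewest and rose from 8.16 to 10.6 CPM (adjusted p of 0.0471, same test). DOT1L, the H3K79 writer, had 60.9 and 57.6 CPM. SMYD5 had the most reads of the SMYD genes, 73.0 and 71.6 CPM. JMJD1C, a relative of KDM3A and KDM3B, had the most reads of the other JmjC genes, 86.4 and 84.8 CPM, and HR the fewest, 2.94 and 2.12 CPM.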

How the data were processed

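TCam-2 cells overexpressing DDX53 gave 2 libraries, made with a stranded poly(A) kit per the labels' protocols. The submitters' processing notes name Trim Galore 0.6.10, STAR 2.7.11a, Salmon 1.10.2 and DESeq2 and the build GRCh38, without roles. The authors deposited TPM per transcript, and a signal per gene that is named as CPM but equals reads divided by 1 factor per library. Whole reads were recovered for 100% of the values (tolerance 1e-06), and 0 columns were left unused. Without molecular identifiers, the intervals given cover counting error and nothing else.

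Gene type, exon lengths and transcript classes came from GENCODE 29 on GRCh38, which held 201667 of 251955 transcripts. The binomial test used edgeR 4.0.16 with TMM and filterByExpr, and was tested on simulated data. The quasi-likelihood test needs 2 groups and was not run. Log2 differences used a pseudocount of 1 CPM. Overlaps used bedtools 2.31.1, and DESeq2 1.42.0 gave alternative size factors. The members, roles, gene lists and marker lists were chosen with earlier results of these data known. The named genes were all members, their transcripts that led in either library or held at least 20% in both, and marker genes. Also named were the highest and lowest gene of each other list by CPM. WDR5, NCOA6, RCOR1, NSD2 and ASH1L were named after their values were seen. Promoters were read from RefSeq, using the most upstream start per gene, a rule set after a first look at the counts. Of the alternative segments examined, 2 are not reported here. The gene pairs whose ratios are given were chosen after levels were seen.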

Additional observations from a re-analysis of the deposited data

How the results depend on the processing

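No paired analysis was possible because both libraries belong to 1 group. The median level of detected genes, 6.15 RPKM, was 8.74 with the length of the transcript that has the longest coding sequence, 9.50 as summed TPM, 5.91 without the detection filter and 5.88 to 6.09 in each library alone. The median protein-coding share, 84.3%, was 82.5% over the 17 genes with at least 10 TPM and 83.6% to 85.7% in each library alone. The cause of these shifts was not tested. Detected members numbered 29 to 35 under the alternatives tried, where the 29 leave out the 6 genes whose reads far exceeded the TPM prediction. Members beyond counting noise numbered 13 or 14. The median replicate difference kept its sign under the 5 alternatives tried. By contrast, the order of KDM5B and KDM5C, KDM2A and KDM2B, and SETD1A and SETD1B turned with the length or table used, as given above. So did the order of SETD2 against KDM2A and KDM2B. The median replicate difference ranged from -0.074 with a pseudocount of 0.1 to -0.026 by summed TPM. The top transcript differed in 3 of 17 genes at 10 TPM and in 6 of 33 without a minimum. Both alternatives on length and those leaving out single genes were chosen after seeing the data. Depth limits KDM4F and KDM4E, and shares of TPM have no known depth.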
